A study of Homo sapiens with 2 samples.

Results

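The extended major histocompatibility complex (MHC) region was taken as chr6:28500000-33500000 of hg38, and its members were all NUDT21 peaks with a summit in that stretch. Replicate 1 had 249 such peaks of 97162 in its list, and replicate 2 had 85 of 68532. The region was divided by the positions of HLA-F, MICB, BTNL2 and HLA-DPB1 in GENCODE release 44 into a telomeric flank, class I, class III, class II and a centromeric flank. No measured value entered the choice of members.

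To examine where NUDT21, a subunit of the cleavage factor that selects polyadenylation sites in pre-mRNA, lies on chromatin in leukemia of the T lineage (T-ALL), the study profiled the J.gamma1 line by CUT&Tag. In this assay a transposase tethered to an antibody cuts DNA near the antibody's target, and the fragments are read out. Both samples were replicates of 1 group, with the same NUDT21 antibody and no treatment given in the labels. No control sample was analysed here, so no test between groups could be made, and each value is given for both replicates. J.gamma1 is an established human T-ALL line, a derivative of Jurkat that lacks PLC-gamma1. It is a single mutant clone, so the samples describe 1 genome. Promoter peaks shared by the replicates lay at 7 of 10 genes that mark T cells, beside 4 of 5 B-cell, 3 of 4 myeloid and 0 of 2 erythroid genes. The labelled cell type therefore could not be told from other white blood cells by promoter peaks.

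The MHC is among the most gene-dense and most variable parts of the human genome. Class I genes encode the chains that show peptides from inside the cell to cytotoxic T cells, class II genes encode those that show engulfed antigen to helper T cells, and the stretch between them, class III, holds complement genes, cytokines of the TNF family and many genes of general RNA and protein metabolism. Because people differ so much here, the hg38 assembly holds alternate sequences of the whole region, each an MHC haplotype, beside the 1 on chromosome 6.

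The DNA under the leading shared peaks is shown first. For each of the 4 parts with shared regions, the 30 bases around the replicate 1 summit of the leading region are given on the + strand. The leading region is the one with the lowest sum of fold ranks over both replicates. A replicate could therefore have a higher fold at another region of the same part. Capitals mark CCGCCC, the reverse complement of the GC box GGGCGG.
Class I, TUBB and MDC1, chr6:30717368-30717397: tcgagcggaggcacacccaaagccCCGCCC
Class III, PRRC2A, chr6:31620255-31620284: tctccctagctgaaggcgccacgggccgtg
Class II, BRD2 and HLA-DMA, chr6:32971808-32971837: ggaggcggggagagagtgctggaggctctg
Centromeric flank, PHF1, chr6:33410784-33410813: gaggaaggggctgaggggattccctctccc
The 4 stretches had a GC content of 73.3%, 70.0%, 70.0% and 66.7%, and none of them held TGTA, the word in RNA (as UGUA) that NUDT21 is known to recognise.

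Further sequences show places where peaks lay on MHC haplotypes but not on chromosome 6. At the start of LSM2, which encodes a subunit of an RNA-binding ring, the stretch below was the same on chromosome 6 and on all 4 haplotypes whose peak covered it.
LSM2, chromosome 6 and 4 haplotypes, chr6:31806939-31806968: agcgcaagctgggtagagtagaggggagga
At HSD17B8, a gene of fatty acid metabolism, all 3 haplotypes whose replicate 2 peak covered the stretch carried the substitution T16C, counted from 1 at the left end with the chromosome 6 base first. The capital marks that base.
HSD17B8, chromosome 6, chr6:33205113-33205142: agtgcaggtgaacgcTaggccactttcccc
HSD17B8, 3 haplotypes: agtgcaggtgaacgcCaggccactttcccc
The values at both places follow with those of the other haplotype peaks.

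NUDT21 peaks were densest in class III and the centromeric flank, the most gene-rich parts of the MHC, and sparse among its olfactory receptor and class II genes. Peak density did not follow gene density throughout, since class II had 29.3 protein-coding genes per Mb and class I 26.8. Class III, 0.896 Mb with 69 protein-coding genes, held 104 peaks in replicate 1 and 32 in replicate 2, which is 116 and 35.7 peaks per Mb. The centromeric flank, 0.410 Mb with 21 genes, was as dense in replicate 1 and denser in replicate 2, with 49 and 22 peaks, or 119 and 53.6 per Mb. Class I, 1.79 Mb with 48 genes, held 85 and 25 peaks, or 47.5 and 13.98 per Mb.

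The other parts were sparse. Class II, chr6:32407182-33089696 with 20 genes, held 7 and 6 peaks, or 10.3 and 8.79 per Mb. The telomeric flank, chr6:28500000-29722774 with 25 genes of which 15 were olfactory receptors, held 4 peaks in replicate 1 and 0 in replicate 2. Per Mb, the whole region had 49.8 peaks in replicate 1 and 17.0 in replicate 2, against 30.02 and 21.6 on chromosomes 1 to 22, X and Y. It was thus 1.66 times as dense as those chromosomes in replicate 1 and 0.787 times as dense in replicate 2. Per protein-coding gene, it had 1.36 and 0.464 peaks, below 4.63 and 3.33 over the main chromosomes in both replicates.

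**Figure D1:**
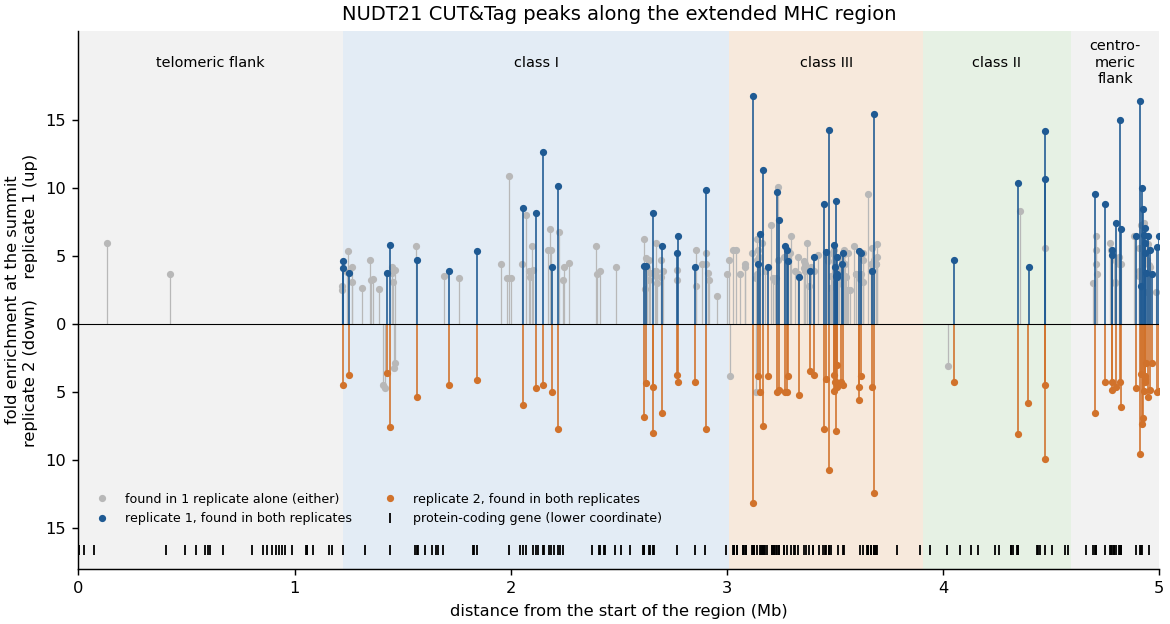
Peaks along the extended MHC region: the horizontal axis gives the distance from its start in Mb, the vertical axis the fold enrichment at the summit, upward for replicate 1 (249 peaks) and downward for replicate 2 (85 peaks). Colored stems are peaks found in both replicates, gray stems peaks of 1 replicate alone, and black ticks protein-coding genes, and the colored stems gather in class III and the centromeric flank, where the folds reach 16.8 and 16.4.

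The replicates differed more in the MHC than elsewhere. Replicate 1 had 2.93 times as many peaks as replicate 2 in the region, against 1.39 times on the main chromosomes and 1.58 times on the rest of chromosome 6. In the 5 Mb before the region the ratio was 1.38 (119 and 86 peaks), and in the 5 Mb after it 1.36 (618 and 454 peaks). The stretches on either side thus did not share the larger ratio. Of 343 windows of 5 Mb on the main chromosomes with at least 10 peaks in replicate 2, 6 had a ratio at or above that of the MHC. Within the region the ratio was 3.40 in class I, 3.25 in class III and 2.23 in the centromeric flank, and 1.17 in class II.

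The mean number of MHC peaks was 167 ± 116 (SD, n = 2), and in class III it was 68.0 ± 50.9 (SD, n = 2). The spread between replicates was close to the mean, so each value below is given per replicate. Of the 85 peaks in replicate 2, 78 touched a peak of replicate 1, a share of 91.8% (95% Wilson interval 84.0% to 96.0%), beside 85.7% on the main chromosomes. Of the 249 peaks in replicate 1, 77 touched a peak of replicate 2, a share of 30.9% (25.5% to 36.9%), beside 56.4%. By this overlap of at least 1 bp, nearly all of the shorter list touched the longer one. The mean of both shares, 61.3%, fell to 33.9% where at least 0.5 of each peak had to overlap, and to 36.3% where summits had to lie within 200 bp.

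The 172 peaks that replicate 1 had alone were the weaker ones, with a median of 18 fragments at the summit against 26 for those it shared. Most of them still lay at promoters, 143 of 172 or 83.1%, beside 43.2% of such single peaks on the main chromosomes. In the 75 regions that both replicates shared, the folds of the replicates rose together across regions (Spearman rho 0.651, as a description), much as in the 49498 shared regions of the main chromosomes (0.678). These points share the libraries and neighbouring peaks are not independent. The summits of the replicates lay a median of 160 bp apart, against 117 bp over the main chromosomes.

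Peaks of the MHC rested on fewer fragments than peaks elsewhere, but over a lower background. The number of fragments at a summit and the background that the peak caller set against it, called the control level here, were solved from the fold and −log10 p that the authors deposited. The median MHC peak had 20 fragments in replicate 1 and 13 in replicate 2, against 30 and 20 on the main chromosomes. Its control level was 2.58 and 1.67, against 6.0 and 3.90. Fragments were thus 0.667 and 0.650 times the level elsewhere, and control levels 0.429 and 0.429 times.

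Fold enrichment was not lower in the MHC. It is the ratio of the one to the other after 1 is added to each, with the fragments of replicate 1 first scaled by 0.921. It is therefore smaller than the plain ratio of the printed medians. Its median was 4.62 in replicate 1 and 4.64 in replicate 2, a mean of 4.63 ± 0.00970 (SD, n = 2), against 3.95 and 4.23 on the main chromosomes. In replicate 1, 51.4% of MHC peaks lay within 5% of the lowest control level that recurred in the list, 2.575, and 6.03% of peaks on the main chromosomes did. In replicate 2 this share was 41.2% around a level of 1.588, against 3.86%. At the median, a fold in the MHC therefore stood for fewer fragments than a like fold elsewhere.

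**Figure D2:**
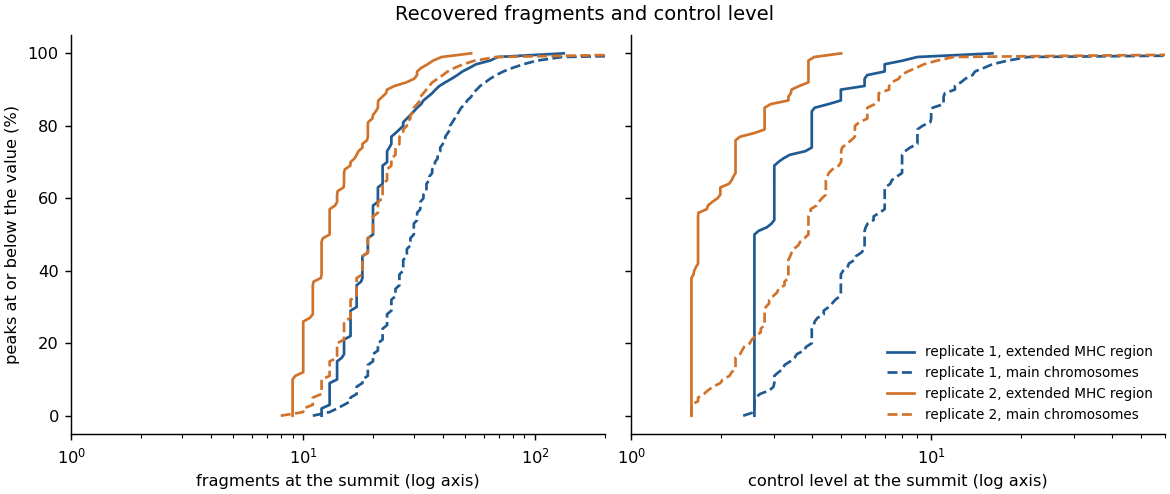
Cumulative share of peaks (vertical axis, percent) by fragments at the summit (left) and by control level (right), both on log axes, for the MHC region (solid) and the main chromosomes (dashed) in each replicate. Both solid lines lie to the left of the dashed line of the same color, and the solid line of replicate 1 climbs steeply at 2.575, where 51.4% of its MHC peaks lie within 5%.

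Most MHC peaks were promoter peaks, defined as those with an edge within 3000 bp of an annotated transcript start. They made up 216 of 249 peaks in replicate 1 (86.7%, 82.0% to 90.4%) and 78 of 85 in replicate 2 (91.8%, 84.0% to 96.0%), beside 50.9% and 54.3% on the main chromosomes. The mean share was 89.3% ± 3.55 (SD, n = 2) against 52.6% ± 2.44, so the replicates differed by far less than the region did from the genome. Genes are also closer together here, 36.6 protein-coding genes per Mb against 6.49 on the main chromosomes, and the part of this in the share was not tested. In class III, 92 of 104 and 32 of 32 peaks were at promoters. In the 5 Mb before the region, with 108 genes, 79.0% and 84.9% were, and in the 5 Mb after it, with 63 genes, 35.8% and 35.7%.

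Of the 33 other peaks in replicate 1, 13 were intergenic, 8 intronic and 7 in other exons, 2 each lay in a 3′ UTR or just downstream of a gene, and 1 lay in a 5′ UTR. TNXB, which encodes the extracellular matrix protein tenascin-X and is a long gene of class III, held 7 of them, with folds from 2.51 to 5.69 and 13 to 21 fragments. None of these 7 was found in replicate 2 on chromosome 6. At chr6:32095451-32096182, replicate 2 had a peak on 1 haplotype. Replicate 2 had 7 peaks outside promoters, 5 intergenic, 1 in a 5′ UTR of PSORS1C1 and 1 in an exon of HLA-DRB5, and 4 of these 7 were found in replicate 1 as well. The 4 were the PSORS1C1 peak, with folds of 4.25 and 4.34, and 3 intergenic peaks beyond ZBTB9, in replicate 1 at chr6:33466311-33466725, chr6:33490613-33491331 and chr6:33497742-33498605.

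Gene ends are where polyadenylation takes place. Outside promoters, 4 of 33 peaks in replicate 1, or 12.1%, and 0 of 7 in replicate 2 had their summit closer than 1000 bp to where a protein-coding gene ends, beside 3.26% and 3.70% on the main chromosomes. Those at MICA, NFKBIL1 and LY6G5C had 13 to 20 fragments. None of the 4 was found in replicate 2 on chromosome 6, but at the MICA peak replicate 2 had a peak on 1 haplotype. Gene ends are also closer together here, with 36.6 protein-coding genes per Mb against 6.49 on the main chromosomes. The part of this in the 12.1% was not tested.

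Fewer MHC genes than genes at large had a promoter peak, and the gap was wider in replicate 2. Of 183 protein-coding genes in the region, 114 had one in replicate 1, which is 62.3% (55.1% to 69.0%), beside 69.8% of the 20033 genes of the main chromosomes. In replicate 2, 69 had one, or 37.7% (31.0% to 44.9%), beside 57.9%. All 69 had one in replicate 1 as well, beside 57.0% of genes in both replicates over the main chromosomes. In the 5 Mb before and after the region, 59.3% and 81.0% of genes had one in both. On the rest of chromosome 6, with 868 genes, 59.3% had one in replicate 1, 41.8% in replicate 2 and 40.8% in both. The shares of the MHC were thus near those of its own chromosome. Because a peak between close starts counts for each of them, neighbouring genes often shared 1 peak.

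The parts again stood apart. Promoter peaks were found by both replicates at 13 of 21 genes of the centromeric flank, 31 of 69 in class III, 21 of 48 in class I, 4 of 20 in class II and 0 of 25 in the telomeric flank. In class II the 4 genes were BRD2, HLA-DMA, PSMB8 and PSMB9, and none of the genes for the DR, DQ and DP chains was among them. In replicate 1 alone the share reached 90.5% in the centromeric flank, 78.3% in class III and 72.9% in class I, all above the 69.8% over all genes. It was 25.0% in class II and 4.0% in the telomeric flank, where TRIM27 was the single gene.

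**Figure D3:**
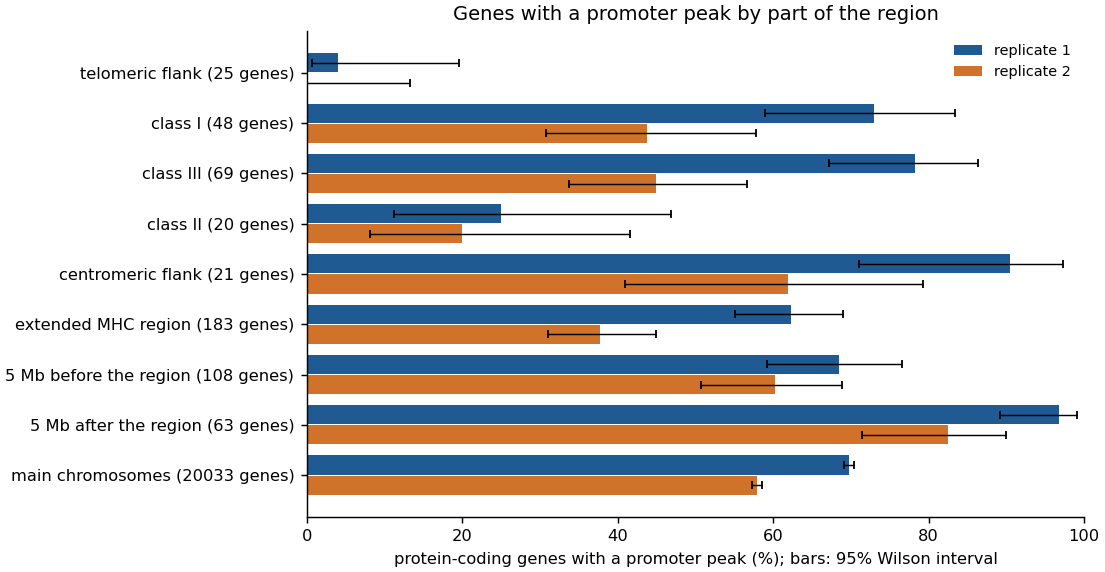
Share of genes (protein-coding) at which a promoter peak lay (horizontal axis, percent) by part of the region, in its neighbors and on the main chromosomes, for replicate 1 (blue) and replicate 2 (orange). Error bars are 95% Wilson intervals, and the class II bars, at 25.0% and 20.0%, and the telomeric flank, at 4.0% and 0%, lie below those of the other parts.

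Among the class I genes, which encode the chains that display peptides, HLA-B, HLA-C and HLA-F carried a promoter peak in each replicate. HLA-C had its highest peak 56 and 53 bp from a start, with folds of 6.46 (24 fragments) and 4.25 (10 fragments). HLA-F, a non-classical class I gene, had folds of 4.62 and 4.49 with 23 and 14 fragments.

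HLA-B differed in position from HLA-C and HLA-F. Its highest peaks, of fold 5.43 (20 fragments) and 4.25 (10 fragments), lay 1291 and 1976 bp from its nearest start. A weaker peak of replicate 1, chr6:31353310-31353830 at 4.15 with 15 fragments, overlapped the peak of replicate 2. HLA-E, which displays leader peptides of other class I chains to natural killer cells, had a peak of fold 10.8 with 41 fragments in replicate 1 and none in replicate 2. That peak, at chr6:30489585-30490655, had the highest fold of all MHC peaks that 1 replicate had alone. HLA-G, the class I gene of the placenta, had none in either list. Class I genes are near copies of each other, so reads cannot always be assigned to 1 of them, and the values of single HLA genes are uncertain for that reason.

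MICA, a stress-induced class I-like ligand of natural killer cells, had peaks of 9.81 (37 fragments) and 7.73 (19 fragments) whose summits lay 6 bp apart. The summits were 1254 and 1260 bp from the nearest MICA start. Its close relative MICB had a peak of 3.63 with 13 fragments in replicate 1 and none on chromosome 6 in replicate 2.

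HLA class II genes carried almost no promoter peaks on chromosome 6. Of 13 HLA class II genes, HLA-DMA alone had promoter peaks, found by both replicates, and its peaks were also those of BRD2. HLA-DMA encodes a chain of the exchange factor that loads class II molecules, while BRD2 encodes a bromodomain protein that binds acetylated chromatin, and both peaks lay within 3000 bp of a start of each gene, so neither can be assigned to 1 of them. The upstream peak, chr6:32968060-32970061, had folds of 14.2 (54 fragments) and 4.49 (11 fragments). The downstream one, chr6:32971547-32972736, had 10.6 (68 fragments) and 9.91 (31 fragments), with summits 39 bp apart and 394 bp from a BRD2 start. The other 12, from HLA-DRA to HLA-DPB1, had no promoter peak on chromosome 6. HLA-DRB1, HLA-DRB5, HLA-DQA1 and HLA-DQB1 belong to the most variable genes of all, and sequences of this line that differ from hg38 were not analysed here.

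The genes that prepare peptides for class I molecules lie inside class II, except TAPBP, which lies in the centromeric flank. Of the 5, 3 had promoter peaks on chromosome 6 in both replicates. PSMB8 and PSMB9 encode subunits of the immunoproteasome, and their genes point away from each other and overlap at their starts. They shared a peak of 10.3 (39 fragments) and 8.11 (20 fragments) whose summits lay 1 and 9 bp from a PSMB8 start. TAP1, a chain of the transporter that carries peptides into the endoplasmic reticulum, had a peak of 8.27 with 31 fragments in replicate 1 and none on chromosome 6 in replicate 2. That peak of replicate 1 was also within reach of PSMB9. TAP2, its partner, had none on chromosome 6. TAPBP encodes tapasin, the bridge between transporter and class I molecule. It had peaks in both replicates, of 14.97 (57 fragments) and 4.25 (10 fragments). Their summits lay 3614 and 2307 bp from a TAPBP start, but 43 and 1153 bp from a ZBTB22 start. In replicate 1 the peak was also within reach of DAXX.

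In class III, both replicates had promoter peaks at all 4 complement genes. CFB, factor B of the alternative pathway, had 8.78 (33 fragments) and 7.73 (19 fragments), with summits 126 and 140 bp from a start. C2, its counterpart in the classical pathway, had 5.09 (21 fragments) and 3.74 (9 fragments), at different starts of the gene. The peak of replicate 2 was also within reach of EHMT2 and ZBTB12. C4A carried 8 in replicate 1 and 5 in replicate 2, the highest at 9.0 (38 fragments) and 7.86 (20 fragments). These overlapped its 3′ end, in replicate 1 at chr6:32001261-32003110. Their summits lay 1373 and 1371 bp from the nearest C4A start, an internal one. C4B had 9 and 2, the highest at 5.19 (44 fragments) and 4.49 (21 fragments). The summits of these highest peaks lay 1387 and 1505 bp from a C4B start, and both peaks were also within reach of CYP21A2. C4A and C4B are nearly the same in sequence, and which copy these fragments came from cannot be told apart.

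The cytokines and heat shock proteins of class III lacked promoter peaks shared by the replicates. LTB, which encodes lymphotoxin beta, had a peak of 4.4 with 16 fragments in replicate 1, 4 bp from a start. TNF and LTA, for tumor necrosis factor and lymphotoxin alpha, had none on chromosome 6 in either replicate. HSPA1A and HSPA1L, whose starts face away from each other, shared a peak of 3.89 with 14 fragments in replicate 1, and HSPA1B had one of 4.92 with 18 fragments. HSPA1A and HSPA1B encode the same inducible HSP70 protein, and reads may be divided between them.

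Genes of RNA processing and transcription had promoter peaks in both replicates about as often as genes at large, and more often in replicate 1. There 20 of the 22 had one, beside 69.8% of all genes. Of 22 such genes, 14 carried a promoter peak in each replicate and 6 in replicate 1 alone, a share in both of 63.6% beside the 57.0% over all genes. The 3 with the lowest sum of fold ranks over both replicates were PRRC2A, SKIC2 and PHF1. Single replicates ordered the genes otherwise. In replicate 1, DAXX and ZBTB22 stood above SKIC2 at 14.97, and in replicate 2 BRD2 stood above PHF1 at 9.91. PRRC2A, a large RNA-associated protein, had 16.8 (64 fragments) and 13.1 (33 fragments). SKIC2, the helicase of the complex that feeds RNA to the exosome, had 14.2 (64 fragments) and 10.7 (31 fragments). The summits lay 3717 and 3807 bp from a SKIC2 start. That of replicate 1 lay 3 bp from the start of DXO, an RNA decapping enzyme. The peak may thus belong to either gene or to their neighbor STK19. PHF1, a Polycomb-associated protein, had 16.4 (70 fragments) and 9.60 (30 fragments). LSM2 and NFKBIL1 had no promoter peak on chromosome 6.

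Of 21 genes of general cell functions, 11 carried a promoter peak in each replicate, or 52.4% beside the 57.0% over all genes, and 8 in replicate 1 alone. In replicate 1, 19 of the 21 thus had one, beside 69.8% of all genes. TUBB, which encodes beta-tubulin, and MDC1, a mediator of the DNA damage checkpoint, point away from each other and shared a peak of 10.1 (87 fragments) and 7.76 (37 fragments). CSNK2B, the regulatory subunit of casein kinase II, had 11.3 (48 fragments) and 7.49 (19 fragments) at a peak within reach of GPANK1.

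Shares below the 57.0% of all genes were found in the remaining lists. None of the 15 olfactory receptor genes, all in the telomeric flank, had a promoter peak in either replicate. Of 8 TRIM genes, of which TRIM27 and TRIM39 are also in the list of general cell functions, TRIM26 had one in both, of 3.89 (14 fragments) and 4.49 (11 fragments), and TRIM27 had one in replicate 1. Of 9 genes of skin, mucosa and the butyrophilin-like group, 3 had one in both, or 33.3%. CCHCR1, a coiled-coil protein of the psoriasis locus, shared its peak with the transcription factor gene TCF19, at 8.12 (43 fragments) and 8.05 (23 fragments). PSORS1C1 and CDSN, which overlap, shared a peak of 6.82 (21 fragments) in replicate 2.

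**Figure D4:**
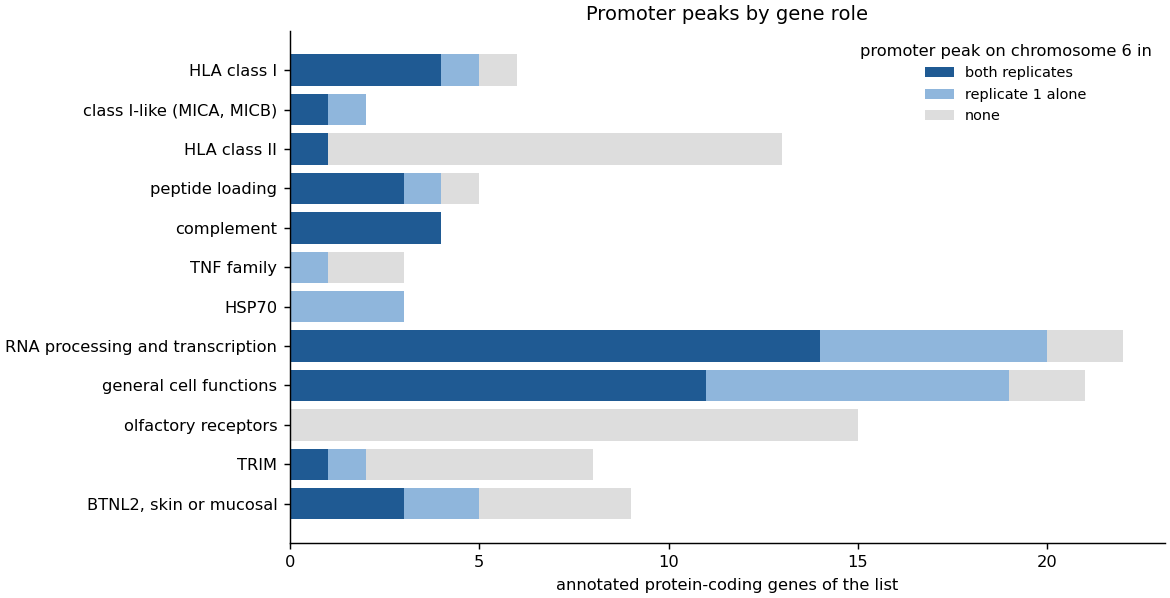
Number of annotated protein-coding genes in each list by role (horizontal axis, genes), divided into those with a promoter peak on chromosome 6 in both replicates, in replicate 1 alone, or in neither. All 4 complement genes are in the first group, and 12 of 13 HLA class II genes and all 15 olfactory receptor genes are in the last.

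The strongest shared regions ranked high in the genome. Of the 49498 regions shared on the main chromosomes, the one at PRRC2A (chr6:31620010-31621286) ranked 372 by fold in replicate 1 and 367 in replicate 2. Among the first 1000 were 6 MHC regions in replicate 1 and 3 in replicate 2. Of the 75 shared MHC regions, 29.3% and 18.7% stood in the top 10% of all shared regions. The position in the ranking is by fold, which in the MHC rested on the low control levels given above.

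In class III, the region at AGPAT1 (chr6:32177390-32178788), an enzyme of phospholipid synthesis whose start lies close to the ubiquitin ligase gene RNF5 and to AGER, had the most fragments of any MHC peak, 133 in replicate 1 and 53 in replicate 2, with folds of 15.4 and 12.4. Its control levels, 7.0 and 3.34, were not at the lowest level, unlike those at PRRC2A, 2.58 and 1.59. In class I, the TUBB and MDC1 region (chr6:30717007-30717762) also stood over higher control levels, 7.0 and 3.90. In the centromeric flank, PHF1 (chr6:33409705-33411443) was followed by CUTA (chr6:33417327-33419195), at 9.99 (64 fragments) and 7.40 (27 fragments). The region of SLC39A7, a zinc transporter, and RXRB, a retinoid X receptor, had 9.56 (36 fragments) and 6.57 (16 fragments). At 10 of the 12 leading regions the summits of the replicates lay within 200 bp of each other.

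Peaks that 1 replicate had alone were led in replicate 1 by HLA-E and by CLIC1, a chloride channel protein, at 10.1 with 38 fragments, 4 bp from a start and within reach of MSH5. At the CLIC1 place replicate 2 had a peak on 2 MHC haplotypes, and at HLA-E it had none. In replicate 2, peaks found alone were few, 7 in all, and weak. The highest were 1 inside PRRC2A at 5.02 with 12 fragments, where replicate 1 had a peak on 5 haplotypes and none on chromosome 6, and an intergenic one at chr6:29916857-29917201 at 4.74 with 14 fragments.

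Within 100 bp either side of the replicate 1 summits of the 75 shared regions, TGTA on either strand was found in 26, or 34.7% (24.9% to 45.9%), beside 46.9% over all shared regions of the main chromosomes. CCAAT, the promoter element bound by NF-Y, was found in 20, or 26.7% (18.0% to 37.6%), beside 14.7%. GGGCGG, the GC box bound by Sp1 and its relatives, was found in 24, or 32.0% (22.5% to 43.2%), beside 21.8%. The mean GC content of these windows was close, 62.0% and 61.3%. Of the regions they are set against, 27991 of 49498 were at promoters, while 71 of the 75 were, and the part of this difference in the motif shares was not tested. A match is a count of letters and not a binding site.

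Peaks on the MHC haplotypes outnumbered those on chromosome 6. The 7 haplotypes carried 759 peaks in replicate 1, from 51 to 137 on each, and 170 in replicate 2, from 4 to 33 on each. That is 3.05 and 2.00 times the number on chromosome 6. The ratio between replicates, 4.46, was higher than on chromosome 6. The haplotype with the fewest peaks also had the fewest known bases, 2.37 Mb, against 3.79 to 4.795 Mb in the others. By known bases they carried 20.0 to 32.8 peaks per Mb in replicate 1 and 1.69 to 8.71 in replicate 2.

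Haplotype peaks looked like those on chromosome 6 in depth. Their medians were 19 and 13 fragments and control levels of 2.58 and 1.61, and 68.1% and 51.8% lay at the lowest control level. To compare them by place, each was aligned to chromosome 6 and 747 of 759 and 167 of 170 could be placed, with 558 and 128 of them, or 74.7% and 76.6%, without a differing base. Of those placed, 47 and 6 matched several positions equally well, and 1 was used. At 541 of the 747 places in replicate 1, a share of 72.4% (69.1% to 75.5%), chromosome 6 had a peak too. In replicate 2 it was 90 of 167, or 53.9% (46.3% to 61.3%). Peaks whose chromosome 6 place held one were the stronger, with medians of 20 against 16 fragments and of 15 against 11.

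When peaks of all sequences at 1 position were merged into a place, replicate 1 had 353 places in the region and replicate 2 had 141. In replicate 1, 77 places had a peak on chromosome 6 only, 159 on chromosome 6 and at least 1 haplotype, and 117 on haplotypes only. In replicate 2 the numbers were 44, 41 and 56, so that 39.7% of its places were not seen from chromosome 6. By place, 33.7% of those in replicate 1 were also found in replicate 2, and 92.2% of those in replicate 2 in replicate 1, near the shares from chromosome 6 alone.

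At the places with a peak on both, chromosome 6 and the haplotypes each had about the same number of fragments. The medians were 20 on chromosome 6 and 19.5 on a haplotype in replicate 1, and 15 and 14.5 in replicate 2. Added over all sequences with a peak, the median place had 75 fragments in replicate 1 and 38 in replicate 2. The largest sums, chosen after the values were seen, were 485 fragments at BRD2 in replicate 1 and, in replicate 2, 196 at the start that PPP1R10, a phosphatase subunit of the machinery that ends transcription, shares with MRPS18B. Reads that match several sequences equally well have to be divided or set on 1 of them by the aligner, and the part of this in the fragment numbers and in the difference between replicates was not tested.

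The depth on chromosome 6 could be set against the number of haplotypes that aligned at each position. Where 0 or 1 haplotype aligned, 0.411 Mb, the median peak had 25 fragments over a control level of 3.51 in replicate 1 and 13.5 over 2.51 in replicate 2. Where 5 to 7 aligned, 3.97 Mb, it had 19 over 2.58 and 12 over 1.67. Where 2 to 4 aligned the medians were the same, 19 over 2.58 and 12 over 1.67, so depth did not fall step by step with the number of haplotypes. Of the genes in these stretches, 3 of 8 and 52 of 152 had a promoter peak in replicate 2. Where 2 to 4 aligned, 14 of 23 did. The share of genes thus did not follow the number of haplotypes in order, and the stretches hold different genes. Peaks per Mb in replicate 2 did fall in order, at 34.1, 30.5 and 13.1, while in replicate 1 they were 56.0, 88.4 and 43.1. Replicates 1 and 2 had 23 and 14 peaks where 0 or 1 aligned, 55 and 19 where 2 to 4 did, and 171 and 52 where 5 to 7 did. The ratio between replicates thus rose in this order, and the part of the haplotypes in it was not tested.

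**Figure D5:**
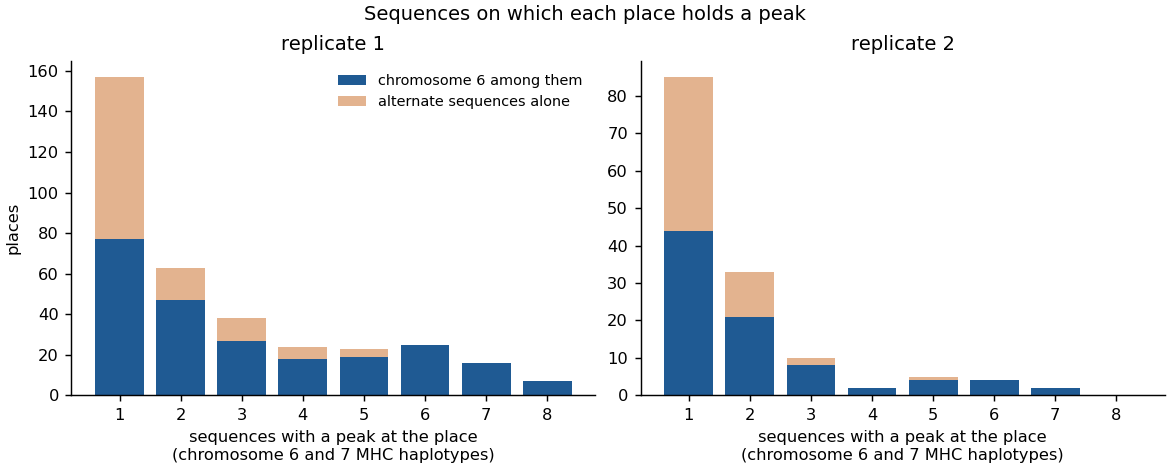
Number of places (vertical axis) by how many of 8 sequences, chromosome 6 and 7 MHC haplotypes, held a peak there (horizontal axis), for each replicate, with places that include chromosome 6 in blue and places seen on haplotypes alone in tan. Places with a peak on 1 sequence are the most common, 157 in replicate 1 and 85 in replicate 2, and the 7 places with a peak on all 8 are in replicate 1.

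The 7 places with a peak on all 8 sequences in replicate 1 included those of TUBB and MDC1, of TAP1 and of PSMB8 and PSMB9. The TAP1 place had 31 fragments on chromosome 6 and a median of 28 on a haplotype, with 214 in all. The PSMB8 and PSMB9 place had 39 and 38, with 312 in all. In replicate 2, no place had a peak on all 8 and 2 had one on 7, at PPP1R10 and at TUBB.

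With haplotype peaks added to their places, which was chosen after seeing the data, 127 of 183 genes had a promoter peak in replicate 1, 93 in replicate 2 and 93 in both, or 50.8%. The share in both remained below the 57.0% of all genes, which was counted without alternate sequences. By part it was 15 of 21 in the centromeric flank, 45 of 69 in class III, 25 of 48 in class I, 8 of 20 in class II and still 0 of 25 in the telomeric flank.

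Among the genes gained were members of the lists above. TNF and LTA shared a haplotype peak of 5.43 in replicate 1 and of 6.18 in replicate 2, where TNF had a further one of 4.25. TAP1 gained 2 peaks in replicate 2, at 5.99 and 6.95, and TAP2 gained 2 in replicate 1, at 3.63 and 5.73, and 1 in replicate 2, at 4.64. With these, all 5 genes of peptide loading had a promoter peak on some sequence in both replicates. Of class II, HLA-DOA, which encodes a chain of the regulator of peptide exchange, gained 1 peak in each replicate, at 3.63 and 4.64, and HLA-DQB2 gained 3 in replicate 1 alone. The other 10 HLA class II genes without a promoter peak on chromosome 6 had none among the placed haplotype peaks. Of the haplotype peaks, 747 of 759 and 167 of 170 were placed, and the rest were assigned to no gene. A peak at an allele that differs too much from chromosome 6 would therefore not be seen here.

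The 2 places whose sequences are printed above were, in each replicate, those with the most haplotype peaks and no chromosome 6 peak, and among equals the one with the most fragments. At LSM2 (chr6:31806494-31807059), replicate 1 had a peak on 5 of 5 aligned haplotypes with 29 to 37 fragments each and folds from 3.46 to 8.77, 161 fragments in all. All 5 were identical to chromosome 6 over the whole peak, and chromosome 6 had none. In replicate 2, 1 haplotype had a peak near this start, at 4.08. At HSD17B8 (chr6:33204369-33205584), replicate 2 had a peak on 5 of 5 haplotypes with 11 to 18 fragments each and folds from 4.64 to 7.34, 69 in all. Here 2 of the 5 peaks were identical to chromosome 6, and 2 positions differed in the others. In replicate 1, HSD17B8 had a promoter peak on chromosome 6 as well.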

How the data were processed

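CUT&Tag with a NUDT21 antibody was performed on 2 replicates of J.gamma1, which formed 1 group. According to the methods and the submitters' processing notes, the authors trimmed reads with fastp, aligned them to hg38 with Bowtie2 2.2.5, removed duplicates with Picard and called peaks in each replicate with MACS3 3.0.1. Options and any control library are not given in the sources used here. The deposited lists give the fold enrichment at each summit (a ratio), its −log10 p, its −log10 q, and positions. The lists hold no read totals, so the absolute depth is unknown.

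Fragments and control level were solved from the deposited fold and −log10 p, for 99.97% and 99.996% of peaks and for every MHC peak; the pileup of replicate 1 was scaled by 0.921. Peaks were assigned by summit and annotated with GENCODE 44 in the order promoter (within 3000 bp of any transcript start), UTR of the 5′ or then the 3′ side, other exon, intron, downstream (300 bp) and intergenic. Peaks overlapping by 1 bp were shared. Haplotype peaks were placed on chromosome 6 with minimap2 2.31 at 98% identity over at least 80%. Wilson intervals cover counting error only. Neighbouring peaks are not independent, and the methods call the replicates biological and independent. The steps were tested on simulated data.

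The region, gene lists and tests were chosen with earlier results of these data known. Named were the genes of the HLA, peptide loading, complement, TNF and HSP70 lists, and the 2 highest peaks of each replicate alone. Also named were the 3 genes of each other list and the 3 shared regions of each part with the lowest sum of fold ranks over both replicates. Some of these genes are not reported here. Of the symbols listed, RDBP and DPCR1 were not annotated in the region. The alternatives tried were a minimum −log10 q of 5, the 10000 strongest peaks of each list, other promoter, overlap and placement rules, and each replicate alone.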

Additional observations from a re-analysis of the deposited data

Results flagged for a closer look

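Peaks also lay on alternate sequences of chromosome 6 outside the MHC haplotypes, which no comparison above used. Replicate 1 had 12 of them on 5 sequences and replicate 2 had 2 on 1 sequence. Of the 12, 10 aligned to chromosome 6, all 10 without a differing base, and 4 of these places held a chromosome 6 peak. With no control sample, these are counts of called peaks and no background was measured for them.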

How the results depend on the processing

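No paired analysis was possible because only 1 group was sampled and no test was made. Of 43 alternative values for 10 results, 30 stayed within the spread between replicates or the counting interval (counts within 1.5 times) and 13 moved. With a −log10 q of at least 5, the mean peak number fell from 167 to 104.5, that of class III from 68.0 to 41.0, and the median fold rose from 4.63 to 5.37. With the 10000 strongest peaks of each list, the peak number was 17.0, 19 genes in place of 69 carried a promoter peak in each replicate, the promoter share 100% and the median fold 9.13. The promoter share was 75.0% within 1000 bp and 76.6% with starts of protein-coding genes alone. The share found in both, 61.3% on average, was 33.9% with a reciprocal overlap and 36.3% by summits, within the wide spread between replicates. TGTA was found in 21.3% of windows of 50 bp either side. Leaving out a replicate gave 85 to 249 peaks, 32 to 104 in class III, shares found in both of 30.9% to 91.8%, promoter shares of 86.7% to 91.8%, median folds of 4.62 to 4.64, medians of 13 to 20 fragments and, for peaks of all chromosome 6 alternate sequences whose place held a peak, 53.8% to 72.0%. With haplotype peaks added, an alternative chosen after seeing the data, 93 genes had a promoter peak in both. The cause of these moves was not tested, except that the stricter settings hold fewer peaks by construction. Peaks with fewer than about 9 fragments in replicate 2 or 12 in replicate 1 were not called in the region, so signal below that was not detectable at this depth, and a gene without a peak is not shown to lack NUDT21.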
